A study of Mus musculus with 22 samples.

Results

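The fatty acid oxidation and ketogenesis genes described here are 38 genes out of 24421 in the gene count files. They were taken by name from a list of enzymes, transcription factors and fatty acid binding proteins, and the rule used no measured value. RNA was sequenced from 22 libraries of 6 epithelial cell populations, sorted by flow cytometry from the dissociated colons of untreated, wild-type male C57BL/6N mice aged 5 to 7 weeks. All populations were live, Epcam+, Cd31- and Cd45-, so that endothelial and blood cells were gated out. Stem cells (3 libraries) were Cd44highest, Cd24low and Ckit-, and absorptive progenitors (AbsPro, 3 libraries) were Cd44med/hi, Cd24low and Ckit-. The SecPDG population (4 libraries), a mixed gate that the study describes as mainly deep crypt secretory cells and progenitors of the secretory lineage, perhaps with some goblet cells, was Cd44hi, Cd24med and Ckitmed. Tuft cells (5 libraries) were Ckit+ and Cd24hi, enterocytes (Ent, 5 libraries) Cd44low/- and Cd24-, and enteroendocrine cells (EEC, 2 libraries) Cd44low/- and Cd24+. The populations are thus defined by surface markers, libraries of the rarer ones were pooled from several mice, and the labels number the libraries without naming the animals. In bulk RNA, fewer cells of a type and less RNA per cell cannot be told apart.

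Fatty acids are burned in mitochondria by a repeated cycle. An acyl-CoA synthetase first activates the fatty acid, carnitine acyltransferases carry long chains across the mitochondrial membranes, and dehydrogenases, hydratases and thiolases then remove acetyl-CoA units from the chain. Colon epithelium is known for using butyrate, the short-chain fatty acid that gut bacteria make, as a main fuel, and part of the acetyl-CoA can leave the cell as ketone bodies. The nuclear receptors of the PPAR family and the coactivator PGC-1alpha are known regulators of these genes.

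Libraries held 4122122 to 22462518 counts on genes, the fewest in EEC 1 and the most in Stem 2. A technical measure differed between the populations: olfactory, vomeronasal and trace amine receptor genes, which colon epithelium is not known to transcribe, took 12.1 to 153 CPM (counts scaled to a common library total) in Stem, AbsPro and SecPDG, 175 to 1447 in Tuft, 755 to 3819 in Ent, and 605 and 6867 in EEC. Over 2000 CPM lay 4 libraries, namely Ent 1, Ent 2, Ent 3 and EEC 1. The number of the 38 genes called in each comparison of 2 populations is also given without them, except in EEC against Stem. The summed normalized counts of 6 stem cell markers were 15030 to 19400 in Stem and at most 8750 elsewhere. Those of 8 enterocyte markers were 57940 to 86750 in Ent, 81740 to 122900 in AbsPro and 15810 to 27720 in Stem, but 25500 in EEC 1 and 156800 in EEC 2, the latter above every Ent library. The summed normalized counts of 7 tuft cell markers were 25870 to 68580 in Tuft and at most 942 in every other population except EEC, which had 3925 and 9290, and 8 enteroendocrine markers summed to 598000 and 1719000 in EEC and at most 33140 elsewhere. Goblet cell markers (8 genes) were as abundant in the Tuft libraries, at 720500 to 1095000, as in the SecPDG libraries, at 726300 to 3072000, and reached 84350 to 254200 in AbsPro and 236000 to 692600 in Ent against 19420 to 32560 in Stem. The summed counts of 12 immune cell markers were 187 to 224 in Stem and up to 981 in Tuft, 1290.0 in Ent and 2856 in EEC. Stromal, endothelial, adipocyte and muscle markers summed to 65.4 to 234.9, 9.6 to 18.9, 10.7 to 26.9 and 10.2 to 91.8 in Stem. They reached 1440, 783, 337 and 975 in Ent and 2520, 1340, 754 and 1851 in EEC. The stromal sum also reached 1245 in AbsPro. For single genes, a background level is given where it matters, as the counts per kilobase on those receptor genes times the exon length of the gene. The part of these transcripts and of the background in the results below was not tested.

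Most of the 38 genes were expressed in every population, and most were most abundant in AbsPro. Of the 36 genes whose normalized counts averaged 50 or more over the libraries, 27 had their highest mean in AbsPro, against 17.1% of all 13188 genes at that level. EEC had the lowest mean for 23 of them, against 36.2% of all genes, and Tuft for 9, against 6.54%. Normalized counts here are counts divided by the library's size, scaled by the trimmed mean of M values (TMM). With the size factors of DESeq2 or with plain totals 24 genes were highest in AbsPro. The other two genes, Cpt1b and Fabp1, stayed under a mean of 50. A gene was called where edgeR's quasi-likelihood test gave an adjusted p under 0.01 and its mean was at least 50. By this rule 27 of the 38 genes differed somewhere among the 6 populations, against 33.6% of all 22781 genes tested.

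**Figure D1:**
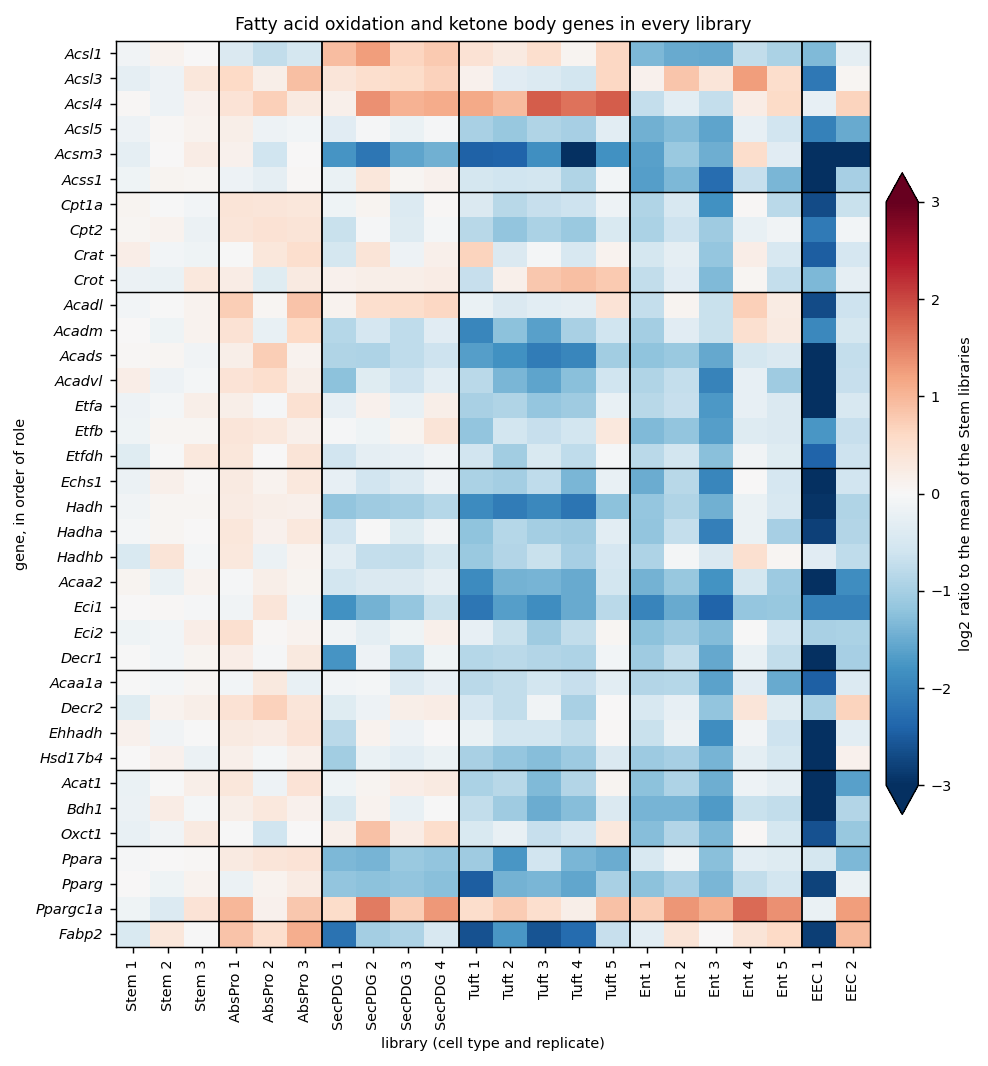
Log2 ratio of each gene's normalized count (plus 1) to its mean in the Stem libraries, for the 36 genes with a mean of at least 50 (rows, grouped by role) in all 22 libraries (columns, grouped by population), with the color scale running from -3 to 3. AbsPro columns are mostly above Stem, most Tuft columns are below it, and EEC 1 and Ent 3 are the lowest columns of their populations.

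The first comparison asks what changes when stem cells become absorptive progenitors. None of the 38 genes was called in AbsPro against Stem in either direction, with 0.496% of all genes called higher and 0.0922% called lower. By edgeR, none had an unadjusted p under 0.05 in either direction, and DESeq2's Wald test called none, nor was any called by edgeR without the 4 libraries of high background. The smallest adjusted p among the genes at a mean of 50 was 0.56, for Ppargc1a. The median log2 fold change of the 36 abundant genes was 0.23, against 0.04 over all genes at that level, and 31 of the 36 values were above 0.

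In SecPDG against Stem, 3 genes were lower and none higher, where 1.59% of all genes were called lower and 3.38% higher. The 3 were Acsm3, an enzyme that activates medium-chain fatty acids, Eci1, an isomerase needed for unsaturated chains, and Ppara, the nuclear receptor best known for switching on fatty acid oxidation. By edgeR, 3 genes had an unadjusted p under 0.05 on the higher side. DESeq2's Wald test called 5 genes lower and 3 higher, and without the 4 libraries of high background 7 were lower and 2 higher. Over all genes the Wald test called 502 lower and 1354 higher, and the fit without the 4 libraries 774 and 1113. The number lower was 1 when Stem 1, 2 or 3 or SecPDG 1, 2 or 3 was left out, and 5 without EEC 1 or EEC 2. Of all genes 202 to 271 were lower in the former fits, and 614 and 520 without EEC 1 and EEC 2. The number higher was 1 or 2 without Stem 3, AbsPro 1, AbsPro 3, Tuft 4, Ent 1, EEC 1 or EEC 2. All genes called higher then numbered 676 to 1180. The median over the 36 genes was -0.19, against -0.06 over all genes, of which 770 were called higher and 362 lower. With plain totals as library sizes 44.3% of those calls were higher in place of 68.0%, and the 2 medians were -0.42 and -0.29.

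AbsPro was also compared with SecPDG directly. Acsm3, Eci1, Ppara, Pparg and Fabp2 were higher in AbsPro than in SecPDG and Acsl1 was lower, which are 5 and 1 of the 38 genes against 1.72% and 2.0% of all genes. This comparison shares the SecPDG libraries with the one before. The median log2 difference was 0.49 for the 36 abundant genes and 0.04 for all genes at that level, of which 392 were called higher and 455 lower (823 and 559 with plain totals). The numbers were 9 and 1 without the 4 libraries of high background, where 794 and 729 of all genes were called. The number higher was 8 without EEC 1. It fell to 3 without AbsPro 2 or SecPDG 3, to 2 without SecPDG 1 and to 1 without SecPDG 2. Of all genes 646 were higher without EEC 1 and 352 without AbsPro 2. Without SecPDG 3, SecPDG 1 and SecPDG 2 they were 294, 293 and 289.

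In Tuft against Stem, 9 of the 38 genes were lower (Acsm3, Hadh, Fabp2, Acads, Eci1, Pparg, Acaa2, Ppara and Acadm), against 4.23% of all genes, and Acsl4 alone was higher, where 7.84% of all genes were. The median log2 fold change was -0.75 for the 36 abundant genes and -0.09 for all genes at that level, and 31 of the 36 were below 0. With the size factors of DESeq2 the 2 medians were -0.57 and 0.20, so that the gap between them widened from -0.66 to -0.77. Without the 4 libraries of high background, or without EEC 1 alone, 17 genes were lower and 1 higher. Over all genes 1676 and 1826 were lower in these fits, and 1876 and 2013 higher. The fit of all libraries gave 964 lower and 1786 higher. Tuft 5, which had the lowest background of the Tuft libraries, lay nearest to Stem, with a median log2 ratio of -0.22 against -0.82 to -0.97 in the other 4.

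For Ent against Stem the count depended on the libraries and on the scaling. In the fit of all libraries 8 genes were lower (Eci1, Acss1, Acsl1, Acaa2, Bdh1, Acaa1a, Pparg and Acsl5) and Ppargc1a was higher, against 11.5% and 10.7% of all genes. Without Ent 1, Ent 2, Ent 3 and EEC 1, no gene was lower and Acsl3 and Ppargc1a were higher. Of all genes 862 were lower and 1474 higher in that fit. The 3 Ent libraries of high background had median log2 ratios of -1.04, -0.72 and -1.45 to Stem over the 36 genes, while Ent 4 and Ent 5 had -0.17 and -0.50. Leaving out single libraries gave 4 genes lower (Ent 2 or Ent 3), 5 (Stem 1), 13 (EEC 2) or 15 (Ent 4). It gave 20 without AbsPro 1, AbsPro 3 or Tuft 4, and 24 without EEC 1. Lower calls over all genes were, in that order, 1985 and 1880, 2140, 3139, 3243, 3846, 3890 and 3892, and 4679. The fit of all libraries gave 2610. Without Stem 2 no gene was called higher. The median over all genes at a mean of 50 was itself -0.30 in this comparison, was -0.53 without EEC 1, and moved to 0.35 with the size factors of DESeq2, with 4583 genes higher and 1478 lower in place of 2448 and 2610. Relative to that median the 36 genes stood at -0.41 with TMM, -0.56 with the size factors of DESeq2 and -0.27 without the 4 libraries.

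EEC against Stem gave the largest count, 13 genes lower (Acsm3, Acaa2, Acat1, Eci1, Acsl5, Decr1, Oxct1, Acss1, Acads, Hadh, Bdh1, Hadha and Acadvl) and none higher, against 9.13% of all genes lower and 10.8% higher. By edgeR, 1 gene had an unadjusted p under 0.05 on the higher side, and DESeq2's Wald test called 1 higher. The 2 EEC libraries were far apart. Their median log2 ratios to Stem were -2.64 in EEC 1, whose median over all genes was -0.86, and -0.64 in EEC 2, where that of all genes was -0.10. Without EEC 1 the median log2 fold change was -0.81 for the 36 genes and -0.30 for all genes. Without EEC 2 the medians were -2.65 and -0.87. Each of these fits leaves 1 EEC library, so no count of called genes is given for them. The fit without all 4 libraries of high background also leaves 1 EEC library, with medians of -0.59 and -0.11. Leaving out Ent 1 gave 20 genes lower, with 2852 of all genes lower. With the size factors of DESeq2 the median of all genes moved from -0.30 to 0.48, with 4395 genes called higher and 1276 lower in place of 2461 and 2079. Relative to the median of all genes the 36 genes stood at -0.84 with TMM, -1.07 with those factors and -0.48 without the 4 libraries.

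Ent against Tuft compares the mature absorptive cells with tuft cells, without Stem. Fabp2, Acsm3 and Acadm were higher in Ent, where 2.66% of all genes were, and Acsl4, Acsl1 and Crot were lower, where 5.79% were. The median log2 difference was -0.01 for the 36 genes and -0.21 for all genes at that level, and with the size factors of DESeq2 it was 0.31 and 0.22. Under those factors 11 of the 38 genes were higher and 2 lower, while over all genes 1206 were higher and 1156 lower in place of 605 and 1318. Without the 4 libraries of high background 7 were higher and 1 lower, with 953 and 589 of all genes.

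**Figure D2:**
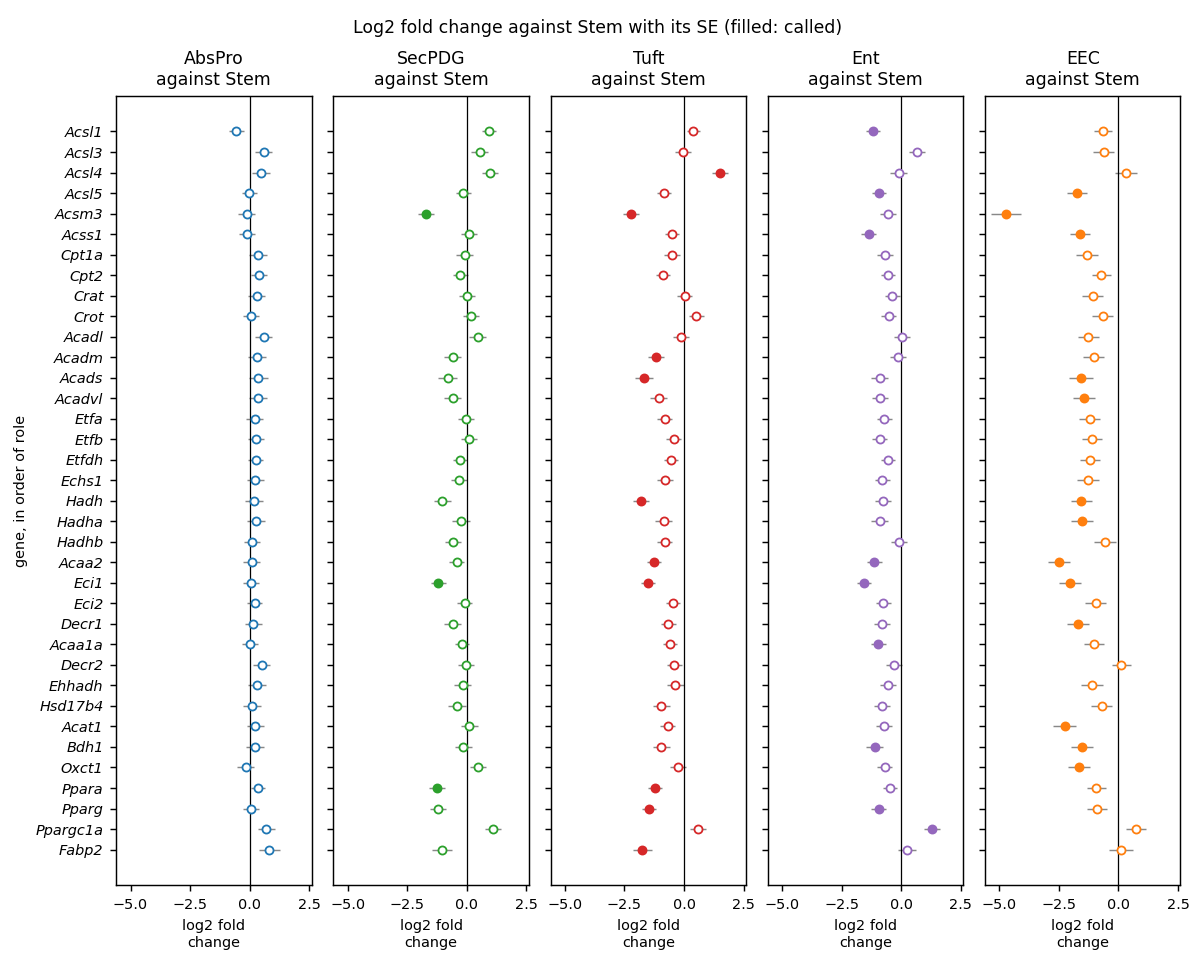
Log2 fold change against Stem (x axis, with bars of 1 SE from edgeR) of the 36 genes with a mean of at least 50 (y axis, in order of role) in AbsPro, SecPDG, Tuft, Ent and EEC, with filled points for called genes. No AbsPro point is filled, 3 are in SecPDG, 10 in Tuft, 9 in Ent and 13 in EEC, and Acsm3 in EEC lies farthest to the left at -4.72.

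The acyl-CoA synthetases, which activate fatty acids, did not move as one group. Acsl1, a long-chain synthetase, had normalized counts of 871, 1010.2 and 946 in the Stem libraries, 702, 568.5 and 656 in AbsPro and 1788, 2252, 1479 and 1618 in SecPDG. In the mature cells, Acsl1 counts were 1279, 1128, 1333, 1001 and 1448 in Tuft, 367, 328, 327, 565 and 492 in Ent and 378 and 786 in EEC. All SecPDG libraries lay above all Stem and AbsPro libraries, and all Ent libraries below all Stem libraries. Acsl1 was 2.77-fold lower in AbsPro than in SecPDG (log2 fold change -1.47 ± 0.30 (SE), adjusted p = 0.000508), 2.98-fold lower in Ent than in Tuft (log2 fold change -1.58 ± 0.27 (SE), adjusted p = 9.36e-06) and 2.27-fold lower in Ent than in Stem (log2 fold change -1.18 ± 0.30 (SE), adjusted p = 0.000895), although without the 4 libraries of high background the last value was -0.73 and not called. Background reads could account for 11.4% of its mean in Ent and 10.2% in EEC. The arachidonate-preferring synthetase Acsl4 had its highest mean in Tuft, with counts of 246, 216 and 263 in the Stem libraries, 323, 399 and 291 in AbsPro and 269, 628, 496 and 528 in SecPDG. For Acsl4 the counts were 535, 468, 851, 749 and 849.9 in Tuft, 146, 193, 147, 282 and 361 in Ent and 202 and 386 in EEC. No Tuft library overlapped any Stem or Ent library, and Acsl4 was 2.87-fold higher in Tuft than in Stem (log2 fold change 1.52 ± 0.33 (SE), adjusted p = 0.000495) and 3.08-fold lower in Ent than in Tuft (log2 fold change -1.62 ± 0.30 (SE), adjusted p = 4.96e-05). It was called higher in Tuft against Stem whichever of the 22 libraries was left out.

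Acsm3 gave the largest called difference of the 38 genes, in EEC. This mitochondrial synthetase of medium-chain fatty acids was at 1503, 1850.1 and 2112 in the Stem libraries, 1996, 1199 and 1823 in AbsPro and 529, 404, 607 and 669 in SecPDG. In the mature populations Acsm3 was at 341, 346, 512, 212 and 515 in Tuft, 589, 848, 655, 2635 and 1439 in Ent and 99.4 and 47.3 in EEC. Stem and AbsPro libraries overlapped each other and lay above all SecPDG and Tuft libraries, and both EEC libraries were the lowest of all. Acsm3 was 3.28-fold lower in SecPDG (log2 fold change -1.71 ± 0.35 (SE), adjusted p = 0.000375), 4.7-fold lower in Tuft (log2 fold change -2.23 ± 0.34 (SE), adjusted p = 1.16e-06) and 26.4-fold lower in EEC (log2 fold change -4.72 ± 0.64 (SE), adjusted p = 4.46e-08) than in Stem. It was 3.01-fold higher in AbsPro than in SecPDG (log2 fold change 1.59 ± 0.35 (SE), adjusted p = 0.00136) and 3.19-fold higher in Ent than in Tuft (log2 fold change 1.67 ± 0.32 (SE), adjusted p = 7.18e-05). Background could account for 38% of its mean in EEC. The 3 calls against Stem and that in Ent against Tuft held with any library left out, the call in AbsPro against SecPDG was lost without AbsPro 1 or SecPDG 2, and the EEC value was -5.21 without the 4 libraries of high background.

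Acss1, which activates acetate in mitochondria, was at 1981, 2283 and 2257 in the Stem libraries, 1968, 1797 and 2223 in AbsPro and 1882, 2741, 2272 and 2394 in SecPDG. In the mature cells Acss1 counts were 1500.0, 1431, 1483, 1169 and 2052 in Tuft, 696, 860.5, 445, 1355 and 836 in Ent and 260.3 and 1094 in EEC. Every Ent library lay below every Stem library (log2 fold change -1.37 ± 0.31 (SE), adjusted p = 0.000343), as did both EEC libraries (log2 fold change -1.62 ± 0.43 (SE), adjusted p = 0.00174), the second not called without EEC 1. Without the 4 libraries of high background the Acss1 call in Ent was lost. Acsl5, a long-chain synthetase of intestinal epithelium, was lower in Ent and EEC with log2 fold changes of -0.93 and -1.74, the first not called without Stem 1, Ent 2 or Ent 3 or with the size factors of DESeq2. Acsl3, another long-chain synthetase, was called in none of the 7 comparisons.

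Among the carnitine acyltransferases, no gene was called against Stem in any population. Cpt1a, the liver-type enzyme that admits long chains to mitochondria and is the control point of the pathway, was abundant throughout, with 5223, 4895 and 4704 in the Stem libraries, 6459.9, 6309.6 and 6288 in AbsPro and 4538, 5233, 3739 and 5097 in SecPDG. The mature cells held Cpt1a at 3636, 2786, 3041, 3225 and 4455 in Tuft, 2643, 3532, 1393, 5065 and 2811 in Ent and 765 and 3105 in EEC. All AbsPro libraries lay above all Stem libraries, but the difference was not called (log2 fold change 0.36 ± 0.38 (SE), adjusted p = 0.934). The test over all 6 populations called Cpt1a (adjusted p = 0.00577). Cpt1b, the muscle form, had 0 to 29 normalized counts per library, and in AbsPro, SecPDG, Tuft and Ent the background alone came to as much as its mean, so no fold is given. Cpt2, Crat and Crot had means of 301 to 2232 normalized counts in the 6 populations, and of these only Crot was called, lower in Ent than in Tuft with a difference of -1.05 ± 0.29 (SE, log2 scale, adjusted p = 0.00701), with overlapping libraries. The Crot call was lost without SecPDG 2, Tuft 3, Tuft 5, Ent 2, Ent 3 or Ent 5, and with the size factors of DESeq2, plain totals or DESeq2's Wald test.

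The acyl-CoA dehydrogenases take the first oxidative step and differ by chain length. Acads, the short-chain enzyme that acts on butyryl-CoA, was at 6845, 6916 and 6207 in the Stem libraries, 7556, 11128 and 7136 in AbsPro and 3577, 3477, 3907 and 4313 in SecPDG. Mature cells held Acads at 2107, 1875, 1552, 1703 and 3208 in Tuft, 2904, 3072, 2288, 4583 and 4918 in Ent and 334 and 4027 in EEC. Every SecPDG, Tuft, Ent and EEC library lay below every Stem library, and the difference was called in Tuft (3.17-fold lower, log2 fold change -1.67 ± 0.37 (SE), adjusted p = 0.000625) and EEC (2.98-fold lower, log2 fold change -1.58 ± 0.50 (SE), adjusted p = 0.00819). The EEC call was lost without EEC 1, Stem 1, SecPDG 1, SecPDG 3, SecPDG 4 or Tuft 1. Acadm, the medium-chain enzyme, was at 2357, 2154 and 2539 in the Stem libraries, 3194, 2015 and 3538 in AbsPro and 1296, 1659.7, 1387 and 1855 in SecPDG. For Acadm the mature cells gave 608, 1003, 762, 1197 and 1558 in Tuft, 1166, 1871, 1485, 3302 and 2844 in Ent and 613 and 1621 in EEC. All 5 Tuft libraries lay below Stem (2.27-fold lower, log2 fold change -1.18 ± 0.32 (SE), adjusted p = 0.00487, not called without Stem 1 or Tuft 1, 2 or 3), whereas Ent and Stem libraries overlapped (log2 fold change -0.14 ± 0.32 (SE), adjusted p = 0.719). Acadm was 2.06-fold higher in Ent than in Tuft (log2 fold change 1.05 ± 0.29 (SE), adjusted p = 0.00904), with overlapping libraries, and kept that call in only 7 of the 22 fits that left out 1 library.

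Acadvl, the very-long-chain enzyme of the inner membrane, was at 3144, 2467 and 2644 in the Stem libraries, 3653, 3883 and 3127 in AbsPro and 1169.5, 2149.6, 1788 and 2203 in SecPDG. The mature cells held Acadvl at 1568, 1059, 921, 1149 and 1827 in Tuft, 1479, 1683, 691, 2322 and 1315 in Ent and 228 and 1709.7 in EEC. Every SecPDG, Tuft, Ent and EEC library was below every Stem library. Only EEC against Stem was called (log2 fold change -1.45 ± 0.46 (SE), adjusted p = 0.00875), and it was lost without EEC 1, Stem 1, SecPDG 3, SecPDG 4, Tuft 1 or Tuft 2. Acadl, the long-chain enzyme, and Etfa, Etfb and Etfdh, which pass the electrons on to the respiratory chain, were called in no comparison between 2 populations, though the test over all 6 called Acadl, Etfa and Etfb. Per kilobase of exon, the scale on which genes can be compared with each other, Acads was the most abundant of the 38 in Stem (2933 normalized counts per kilobase) and AbsPro (3793), and Etfb in SecPDG (2641) and Tuft (1826).

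For the 8 later enzymes of the mitochondrial cycle every log2 fold change against Stem was below 0 in SecPDG, Tuft, Ent and EEC, and 1, 3, 2 and 5 of the 8 passed the test, where 1.59%, 4.23%, 11.5% and 9.13% of all genes were called lower. The medians over all genes were themselves -0.06, -0.09, -0.30 and -0.30, and the last 2 were 0.35 and 0.48 with the size factors of DESeq2. Hadh, the dehydrogenase of short and medium chains, was at 5365, 6036 and 6039 in the Stem libraries, 6875, 6521 and 6513 in AbsPro and 2547, 2789.8, 2883 and 3201 in SecPDG. Mature cells held Hadh at 1559.8, 1352, 1515, 1277 and 2483 in Tuft, 2584, 3098, 2139.6, 5049 and 4199.6 in Ent and 750.3 and 3129 in EEC. No SecPDG, Tuft, Ent or EEC library reached the lowest Stem library, and Hadh was 3.53-fold lower in Tuft (log2 fold change -1.82 ± 0.33 (SE), adjusted p = 3.3e-05) and 2.94-fold lower in EEC (log2 fold change -1.56 ± 0.45 (SE), adjusted p = 0.00362). The EEC call was lost without EEC 1. In SecPDG the value was -1.03 ± 0.35 (SE, log2 scale, adjusted p = 0.0552), not called. Acaa2, the mitochondrial thiolase that releases acetyl-CoA, was at 2826, 2308 and 2840.2 in the Stem libraries, 2606, 3009 and 2794 in AbsPro and 1806, 1971, 1960.2 and 2195 in SecPDG. For Acaa2 the mature cells gave 721, 992, 1011, 933 and 1825 in Tuft, 993, 1207, 767, 1831 and 1245 in Ent and 161 and 724 in EEC. All 12 libraries of the mature populations were below all Stem libraries, with differences of -1.26 ± 0.31 (SE, log2 scale, adjusted p = 0.00172) in Tuft, -1.13 ± 0.31 (SE, log2 scale, adjusted p = 0.00194) in Ent and -2.51 ± 0.46 (SE, log2 scale, adjusted p = 1.61e-05) in EEC. The Tuft call was lost without Stem 1, and the Ent call without the 4 libraries of high background and by DESeq2's Wald test.

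Eci1, the isomerase that lets unsaturated chains enter the cycle, was lower in 4 populations. Its counts were 1089, 1105 and 1066 in the Stem libraries, 1011, 1389 and 1009 in AbsPro and 307, 409, 489 and 685 in SecPDG. Counts of Eci1 in the mature types were 239, 345, 299.6, 383 and 616 in Tuft, 273, 381, 203, 485 and 496 in Ent and 266 and 265 in EEC. All 16 libraries of SecPDG, Tuft, Ent and EEC lay below the 6 libraries of Stem and AbsPro. The differences from Stem were -1.20 ± 0.31 (SE, log2 scale, adjusted p = 0.00697) in SecPDG, -1.50 ± 0.30 (SE, log2 scale, adjusted p = 0.000164) in Tuft, -1.56 ± 0.31 (SE, log2 scale, adjusted p = 5.13e-05) in Ent and -2.03 ± 0.45 (SE, log2 scale, adjusted p = 0.000217) in EEC. AbsPro exceeded SecPDG by 1.26 ± 0.31 (SE, log2 scale, adjusted p = 0.0053). The calls in Tuft and Ent held with any single library left out, and that in EEC with any library of another population left out. Without the 4 libraries of high background the Ent call was lost. The call in SecPDG was lost without any of Stem 1 to 3 or SecPDG 1 to 3, and that in AbsPro against SecPDG without AbsPro 2 or SecPDG 1 to 3. Hadha, a trifunctional protein subunit, and Decr1, a reductase for unsaturated chains, were called lower in EEC against Stem (-1.53 and -1.70 on the log2 scale), Hadha not without EEC 1 or Stem 1 and Decr1 not without EEC 1. In the other comparisons they were not called, although every Tuft and Ent library of Hadha lay below every Stem library. Echs1, Hadhb and Eci2 were called in no comparison of 2 populations. Hadha and Hadhb encode the 2 subunits of the mitochondrial trifunctional protein, and their levels in Stem were 772 and 53.8 normalized counts per kilobase. The 2 genes lie close together on opposite strands of chromosome 5, and reads were counted without regard to strand. Their GENCODE models, at 30118304 to 30155162 and 30155248 to 30184593, do not overlap. The part of the counting in this difference of level was not tested.

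Of the peroxisomal enzymes, which shorten very long chains outside mitochondria, Acaa1a alone was called, lower in Ent than in Stem (log2 fold change -0.96 ± 0.30 (SE), adjusted p = 0.00654). That call was lost without Stem 1, Ent 2, Ent 3 or Ent 5 and with the size factors of DESeq2, and reads of Acaa1a may be shared with its near copy Acaa1b. Decr2, Ehhadh and Hsd17b4 were called in none of the 7 comparisons, nor by the test over all 6 populations. Their log2 fold changes in Tuft were -0.41, -0.36 and -0.95.

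All 3 ketone body enzymes were lower in EEC than in Stem. Acat1, which makes or splits acetoacetyl-CoA, was at 2684, 3016 and 3484 in the Stem libraries, 3894, 2759.5 and 4095 in AbsPro and 2800.4, 3227, 3535 and 3681 in SecPDG. In the mature populations Acat1 was at 1587, 1729, 1227, 1664 and 3220.5 in Tuft, 1296, 1602, 1117, 2752 and 2535 in Ent and 255 and 984 in EEC. Both EEC libraries were below every other library, and Acat1 was 4.74-fold lower in EEC than in Stem (log2 fold change -2.25 ± 0.48 (SE), adjusted p = 0.000141), a call that held with any library left out. Bdh1, which interconverts the 2 main ketone bodies, was at 4905, 6440.0 and 5303 in the Stem libraries, 6249, 6932 and 6056 in AbsPro and 4020.0, 5961, 4756 and 5471 in SecPDG. For Bdh1 the mature cells gave 3303, 2629.9, 1965, 2274 and 4135 in Tuft, 2099, 2127, 1709, 3498 and 3326 in Ent and 679.8 and 3024 in EEC. Every library of the mature populations was below every Stem library, and the difference was called in Ent (log2 fold change -1.12 ± 0.34 (SE), adjusted p = 0.00435) and EEC (log2 fold change -1.55 ± 0.46 (SE), adjusted p = 0.00455), the first not without Ent 2 or Ent 3 and the second not without EEC 1. The Ent call was also lost with the size factors of DESeq2 and by DESeq2's Wald test. In Tuft the value was -0.95 ± 0.34 (SE, log2 scale, adjusted p = 0.0261), not called.

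Oxct1, the enzyme that lets a cell burn ketone bodies, had its highest mean in SecPDG. Its counts were 2760.1, 2956 and 3892 in the Stem libraries, 3166, 2124 and 3225 in AbsPro and 3549, 5908, 3744 and 4617 in SecPDG. Mature cells held Oxct1 at 2336, 2746, 1987, 2246 and 4010.2 in Tuft, 1329, 1753, 1265, 3277 and 2217 in Ent and 526.1 and 1452 in EEC. SecPDG and Stem libraries overlapped (log2 fold change 0.47 ± 0.34 (SE), adjusted p = 0.569), and only EEC against Stem was called (log2 fold change -1.66 ± 0.45 (SE), adjusted p = 0.0023), not so without EEC 1.

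The butyrate carriers Slc5a8 and Slc16a1 are not among the 38 genes. Slc5a8, the sodium-coupled carrier, was at 1686, 1987 and 1557 in the Stem libraries, 5020.1, 3732 and 4296 in AbsPro and 587, 306, 541 and 520.0 in SecPDG. Counts of Slc5a8 in the mature types were 587, 293, 679, 189 and 453 in Tuft, 2874, 4361, 2207, 9783 and 5538 in Ent and 77.7 and 688 in EEC. Every AbsPro and Ent library lay above every Stem library, and every SecPDG, Tuft and EEC library below. The difference between AbsPro and Stem was not called. Slc5a8 was lower than in Stem in SecPDG, Tuft and EEC by log2 fold changes of -1.82, -1.99 and -2.08. It was higher in AbsPro than in SecPDG (log2 fold change 3.14 ± 0.41 (SE), adjusted p = 7.79e-08), in Ent than in Tuft (log2 fold change 3.50 ± 0.36 (SE), adjusted p = 2.7e-11) and in Ent than in Stem (log2 fold change 1.51 ± 0.38 (SE), adjusted p = 0.00102). Slc16a1, the proton-coupled carrier MCT1, was higher in AbsPro than in SecPDG (log2 fold change 2.00 ± 0.42 (SE), adjusted p = 0.000741) and in Ent than in Tuft (log2 fold change 2.38 ± 0.38 (SE), adjusted p = 2.73e-06), and lower in Tuft than in Stem (log2 fold change -2.16 ± 0.41 (SE), adjusted p = 6.94e-05).

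The 3 regulators differed in their order over the populations. Ppara was at 640.3, 663 and 679 in the Stem libraries, 799.7, 849 and 883 in AbsPro and 257, 249.9, 307 and 292 in SecPDG. In the mature populations Ppara was at 317, 197, 439.9, 254 and 233 in Tuft, 471, 615, 278, 533 and 505 in Ent and 456 and 258 in EEC. The AbsPro libraries lay above all others, and no SecPDG or Tuft library reached the lowest Stem library. Ppara was 2.38-fold lower in SecPDG (log2 fold change -1.25 ± 0.32 (SE), adjusted p = 0.00489) and 2.31-fold lower in Tuft (log2 fold change -1.21 ± 0.30 (SE), adjusted p = 0.00211) than in Stem, and 3.04-fold higher in AbsPro than in SecPDG (log2 fold change 1.60 ± 0.31 (SE), adjusted p = 0.000225). The SecPDG call against Stem was lost without any one Stem or SecPDG library, and the other 2 held with any library left out. With counts thinned to the smallest library the SecPDG and Tuft calls against Stem were lost. DESeq2's Wald test did not call Ppara in Tuft. Pparg, the receptor that butyrate-using colon cells are known to express, was at 1632, 1470.5 and 1718 in the Stem libraries, 1421, 1731 and 1899 in AbsPro and 706, 686, 708 and 671 in SecPDG. For Pparg the mature cells gave 290.5, 597, 619, 545 and 825 in Tuft, 689, 801, 622, 964 and 1105 in Ent and 233 and 1403 in EEC. The 4 SecPDG libraries were within 671 to 708 and all lay below Stem, but that value was not called (log2 fold change -1.21 ± 0.33 (SE), adjusted p = 0.01). Pparg was lower than in Stem in Tuft (log2 fold change -1.47 ± 0.31 (SE), adjusted p = 0.000397) and Ent (log2 fold change -0.94 ± 0.31 (SE), adjusted p = 0.00862) and higher in AbsPro than in SecPDG (log2 fold change 1.28 ± 0.33 (SE), adjusted p = 0.00792). The Ent call was lost without Stem 1, SecPDG 3, SecPDG 4, Tuft 2, Ent 2 or Ent 3, and that in AbsPro against SecPDG without AbsPro 2, AbsPro 3 or any SecPDG library. In other settings the Ent call was kept in 4 of 12. It was lost with the size factors of DESeq2, plain totals, factors from abundant genes and DESeq2's Wald test.

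Ppargc1a, which encodes the coactivator PGC-1alpha, was the one of the 36 genes called higher in Ent than in Stem. It was at 428, 355 and 624.6 in the Stem libraries, 942, 517 and 823 in AbsPro and 683, 1386, 783 and 1162 in SecPDG. Mature cells held Ppargc1a at 672, 795, 665, 534 and 861 in Tuft, 779, 1182, 979.7, 1528 and 1218 in Ent and 410.4 and 1116 in EEC. All 5 Ent libraries were above all Stem libraries, 2.43-fold higher in the fit (log2 fold change 1.28 ± 0.33 (SE), adjusted p = 0.00107), and the value was 1.66 without the 4 libraries of high background and not called without Stem 2. The difference in SecPDG was not called (log2 fold change 1.09 ± 0.34 (SE), adjusted p = 0.0304).

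Fabp2, the intestinal fatty acid binding protein, was higher in AbsPro than in SecPDG and in Ent than in Tuft. It was at 1332, 2324 and 1824 in the Stem libraries, 3327, 2579 and 3861 in AbsPro and 395, 903, 965 and 1308 in SecPDG. Counts of Fabp2 in the mature types were 299, 544, 303, 370.4 and 1130.1 in Tuft, 1462, 2379, 1831, 2408 and 2747 in Ent and 259 and 3549 in EEC. Every AbsPro library lay above every Stem library, and every Ent library above every Tuft and SecPDG library. Fabp2 was 3.65-fold higher in AbsPro than in SecPDG (log2 fold change 1.87 ± 0.41 (SE), adjusted p = 0.00125), 3.98-fold higher in Ent than in Tuft (log2 fold change 1.99 ± 0.37 (SE), adjusted p = 4.28e-05) and 3.36-fold lower in Tuft than in Stem (log2 fold change -1.75 ± 0.40 (SE), adjusted p = 0.00093). The last was lost without Stem 2, and the first without SecPDG 1 or SecPDG 2. Per kilobase it was the most abundant of the 38 genes in Ent (2244 normalized counts) and in EEC (1973), the latter resting on EEC 2. In EEC against Stem its log2 fold change of 0.10 turned to -2.82 without EEC 2.

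Fabp1, the liver-type binding protein, had counts in the 3 mature populations alone. It had 0 counts in all 10 libraries of Stem, AbsPro and SecPDG, a group total of 0 that allows up to 3 counts. Normalized counts of Fabp1 were 15.9, 94.7, 86, 117 and 105 in Tuft, 10.2, 9.18, 18.5, 13.7 and 15.2 in Ent and 38 and 75.2 in EEC. Set against the 3 counts that could have been missed over all Stem libraries, the means of 83.8 in Tuft, 13.4 in Ent and 56.6 in EEC were at least 122-fold, 19.4-fold and 82.1-fold higher. These floors cover counting error only. Its mean of 27.2 over all libraries kept it under the limit of 50, so that it was not called by the rule, although its adjusted p over the 6 populations was 4.43e-08. Background could account for 1.51% of its mean in Tuft, 18.7% in Ent and 5.52% in EEC.

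**Figure D3:**
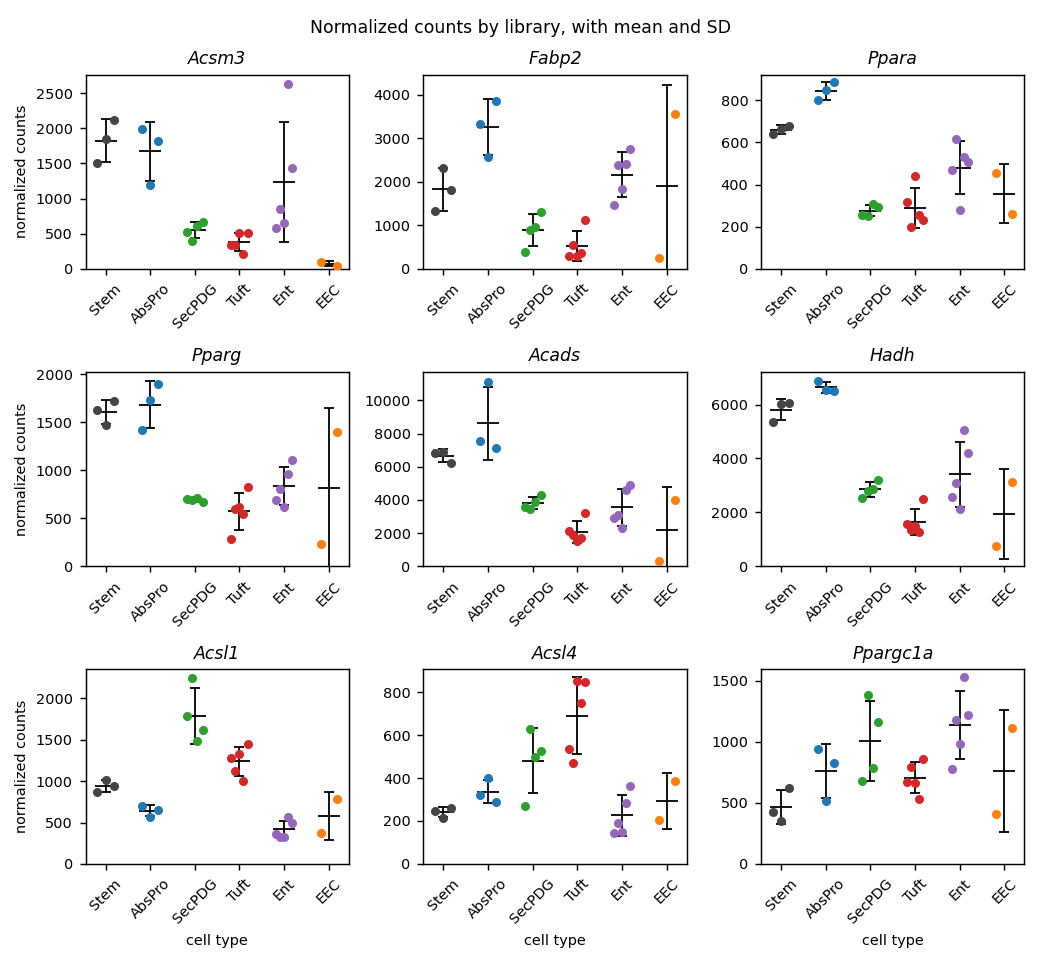
Normalized counts (y axis, from 0) of 9 genes in each library (points) of the 6 populations (x axis), with the mean as a bar and 1 SD as the error. Acsm3, Fabp2, Ppara, Pparg, Acads and Hadh are lower in Tuft than in Stem, Acsl1 is highest in SecPDG, Acsl4 in Tuft and Ppargc1a in Ent, and the 2 EEC points are far apart for Fabp2, Pparg, Acads and Hadh.

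Another 4 lists put these genes beside the rest of the pathway. The shares of all genes called against Stem, higher and lower, were 3.38% and 1.59% in SecPDG, 7.84% and 4.23% in Tuft, 10.7% and 11.5% in Ent, and 10.8% and 9.13% in EEC. Of 28 other mitochondrial genes, 4 were higher and 1 lower in Tuft than in Stem, 7 and 5 in Ent, and 4 and 4 in EEC. Their median log2 fold change in Tuft was -0.12 for the 25 at a mean of 50, against -0.75 for the 36 genes described here and -0.09 for all genes. The largest increases in Tuft were those of Acsm2 and Acsm5, relatives of Acsm3, with 317 and 268 raw counts over all Tuft libraries and 0 and 2 over all Stem libraries. Background could account for 22.1% and 13.5% of the Tuft means of Acsm2 and Acsm5. In Tuft 1 to 5 Acsm2 was at 39.1, 143, 109, 84 and 10.9, and Acsm5 at 45.2, 121, 78.4, 59.8 and 17.6. The background in these libraries was 655, 1447, 1177, 1176 and 175 CPM. Acsm2 and Acsm5 were also called higher in Ent and EEC. EEC 1 and EEC 2 had 383 and 46.1 for Acsm2, 213 and 14.6 for Acsm5, and a background of 6867 and 605 CPM. The part of the background in these increases was not tested. Acsl6, a long-chain synthetase, was higher in EEC than in Stem (log2 fold change 5.44 ± 0.94 (SE), adjusted p = 4.27e-06), with 21% of its EEC mean at the background level. Of 18 other peroxisomal genes none was higher in any population against Stem, and 1, 1, 2 and 2 were lower in SecPDG, Tuft, Ent and EEC. Mlycd, which breaks down malonyl-CoA, the inhibitor of Cpt1, was higher in SecPDG than in Stem (log2 fold change 1.34 ± 0.34 (SE), adjusted p = 0.00545), and Acacb, which makes malonyl-CoA at mitochondria, was lower in Ent than in Tuft (log2 fold change -1.98 ± 0.27 (SE), adjusted p = 9.22e-08). Slc27a2, an acyl-CoA synthetase of very long chains that also acts in uptake, was the largest called decrease of the peroxisomal list in SecPDG (log2 fold change -1.30 ± 0.32 (SE), adjusted p = 0.00355) and Ent (log2 fold change -2.24 ± 0.33 (SE), adjusted p = 4.86e-07). Pex11a, which acts in peroxisome division, had 1 read over both EEC libraries and 98.4 to 205 normalized counts in Stem. Of 13 uptake and binding genes, Fabp6, the bile acid binding protein, was higher in AbsPro than in SecPDG (log2 fold change 4.08 ± 0.87 (SE), adjusted p = 0.000622) and in Ent than in Tuft (log2 fold change 4.41 ± 0.55 (SE), adjusted p = 1.92e-09). Vnn1, a pantetheinase known as a PPAR target, and Nr1h3, the sterol receptor LXR-alpha, were higher in Ent than in Tuft by log2 fold changes of 2.47 and 1.44. Of 27 other regulators and known PPAR targets, 2 were higher and 4 lower in Tuft than in Stem, 1 and 3 in Ent, and 1 and 7 in EEC. In AbsPro against Stem no gene of these 4 lists was called.

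RefSeq promoters of the GRCm38.p6 build, from 250 bases before to 50 after the start, were matched for 32 of the 38 genes (36 promoters). The letters AGGTCA, the core motif that PPAR and its partner RXR recognize as a repeat, were searched on both strands and found in 7 of the 36 promoters (those of Acadm, Acadvl, Cpt1a, Echs1, Fabp1 and Pparg), against 16.3% of all 32851 promoters. CCAAT was found in 16 of the 36, against 37.4% of all promoters. No promoter of these genes held the core motif as an exact direct repeat with 1 base between the copies, found in 13 of all promoters. A copy with a changed letter does not count here, such as the TGGCCT that follows TGACCT after 1 base in Fabp1. The 5 windows of 30 bases around the core motifs that lay wholly before the start and within the promoter are shown (the Acadm motif lies too near the far edge). They read 5′ to 3′ on the strand of the gene, with AGGTCA or its reverse complement in capitals.
Acadvl: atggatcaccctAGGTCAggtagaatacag
Cpt1a: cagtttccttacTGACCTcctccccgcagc
Echs1: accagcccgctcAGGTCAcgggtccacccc
Fabp1: atcgacaatcacTGACCTatggcctatatc
Pparg: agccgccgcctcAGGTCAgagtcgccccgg
These windows lie at chr11:70015498-70015527 (minus strand) for Acadvl, chr19:3323195-3323224 (plus strand) for Cpt1a, chr7:140116487-140116516 (minus strand) for Echs1, chr6:71199800-71199829 (plus strand) for Fabp1 and chr6:115361104-115361133 (plus strand) for Pparg. Fabp1 had 0 counts in Stem, AbsPro and SecPDG, Pparg was lower in Tuft and Ent, Acadvl was lower in EEC, and Cpt1a and Echs1 were called in no comparison of 2 populations. A match of letters says nothing of binding in these cells.

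**Figure D4:**
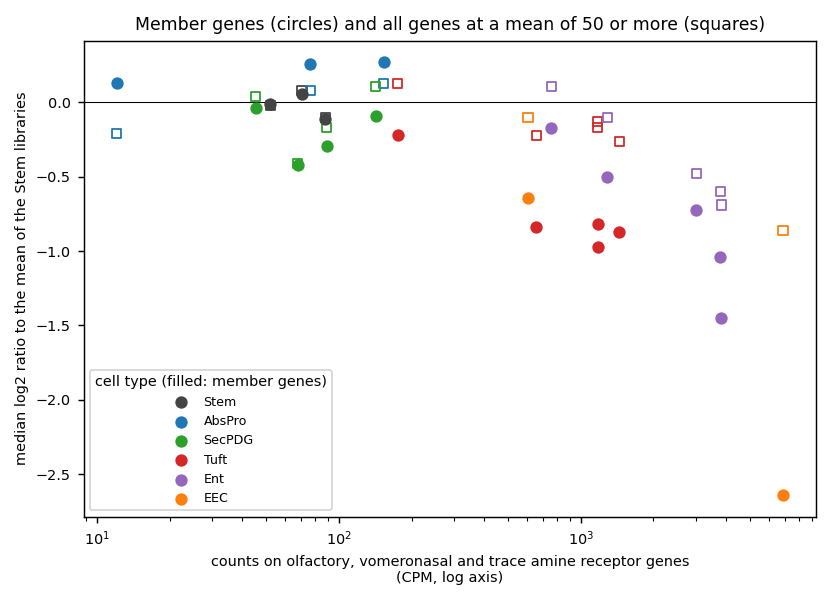
Median log2 ratio to the mean of the Stem libraries (y axis) of the 36 genes (filled circles) and of all 13188 genes at a mean of 50 (open squares) in each library, against the CPM on olfactory, vomeronasal and trace amine receptor genes (x axis, log scale), colored by population. Circles fall to -2.64 and squares to -0.86 in EEC 1, the library of the highest background.

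Over the 22 libraries the distance between the 36 genes and all genes ranged from 0.34 in AbsPro 2 to -1.78 in EEC 1. AbsPro libraries lay from 0.14 to 0.34 and SecPDG libraries from -0.01 to -0.21. The range was -0.36 to -0.84 for Tuft and -0.25 to -0.76 for Ent, and EEC 2 stood at -0.54. All Tuft libraries were below all Stem, AbsPro and SecPDG libraries on this measure. The part of the background in it was not tested.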

How the data were processed

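RNA of 22 sorted libraries was made into paired-end libraries with a low-input kit. The deposited values are raw counts per gene, made by the authors with STAR 2.5.2a on mm10 and HTSeq 0.6.1p1 without regard to strand, so that reads of a gene and an antisense partner cannot be told apart. The 5 HTSeq entries that name no gene were left out. Reads in no gene alone were 40.85 to 89.74% of the reads in genes, in no gene or ambiguous. Counts were filtered with filterByExpr, scaled by TMM and tested with edgeR 4.0.16 in 1 fit of all libraries, with Benjamini-Hochberg adjustment over all 22781 genes. Genes were called at an adjusted p under 0.01 where their normalized counts averaged 50 or more. Both quasi-likelihood methods of edgeR had been run on the data before the newer was taken as the main one. The members, lists and limit of 2000 CPM were chosen with earlier results of these data known. Every library's value is given for the 4 largest increases and decreases among the calls of each comparison whose libraries did not overlap and for 13 genes of key steps; genes of other lists are named where called and among the 3 largest changes of their list. Levels per kilobase used the exon union of GENCODE M 21 gene models. P-values measure the spread between libraries. Alternatives were DESeq2 1.42.0, other size factors, filters and thresholds, thinned counts, a fit of 2 cell types, a replicate block and leaving out libraries. Scripts were tested on simulated data. Files of splicing and polyadenylation comparisons were not used. One list of further genes is not reported here as a whole.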

Additional observations from a re-analysis of the deposited data

Results flagged for a closer look

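A library standing apart from the others of its population was looked for in 113 groups of 4 or 5 libraries with Dixon's test, which chance flags in about 1 of 20 groups. It was found in 8, and in 7 of these Tuft 5 was the highest of the 5 Tuft libraries. Normalized counts of Acsl5 were 1783 in Tuft 5 against 1015 to 1188 in the other 4. Acadl had 2716 against 1523 to 1789, Etfa 1321 against 688 to 829.1, and Hadh 2483 against 1277 to 1560.0 in the other Tuft libraries. Acaa2 had 1825 against 721 to 1011, Decr1 1082 against 604 to 649.9, and Acat1 3220.0 against 1227 to 1729. Tuft 5 also had the most counts on genes, 20892532 against 9930648 to 11906187, and the lowest background, 175 CPM against 655 to 1447. Their part in these values was not tested. The remaining case is Cpt1b in SecPDG 2, with 1.24 normalized counts from 1 read, against 0 in the other 3 SecPDG libraries.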

How the results depend on the processing

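The counts of called genes moved with the scaling, the threshold, the fit and the libraries used. Genes lower and higher than in Stem were 5 and 2 in SecPDG with the size factors of DESeq2, 7 and 1 with plain totals, 5 and 2 with factors from abundant genes, 8 and 4 in a fit of the 2 populations alone, and 5 and 3 with DESeq2's Wald test. Lower calls over all genes in SecPDG were 530, 1044, 534, 740 and 502 in these settings, against 362. Higher calls over all genes also rose in each of them, from 770 to at most 1438. In SecPDG 2 were higher at an adjusted p under 0.05, where 1046 of all genes were. In Tuft 16 were lower with totals, 15 with factors from abundant genes, 16 at an adjusted p under 0.05 and 17 in the fit of 2 populations. Lower calls over all genes in Tuft were 1332, 1356, 1891 and 1653 in these settings, against 964. In Tuft 2 were higher with the size factors of DESeq2, with no minimum mean or in the fit of 2 populations, and 3 by the Wald test. Higher calls over all genes were 2196, 2524, 1883 and 2864 in turn, against 1786. In Ent 4 were lower with the size factors of DESeq2, by the Wald test and in the fit of 2 populations, 5 with totals or a 2-fold minimum, and 17 at an adjusted p under 0.05, while 2 were higher with those factors, totals, abundant genes, the 2 populations or the Wald test. Of all genes 1478, 1398, 2026, 1698, 2385 and 3830 were then lower in Ent, against 2610. Those higher numbered 4583, 4161, 3635, 4337 and 3842, against 2448. In EEC 23 were lower at an adjusted p under 0.05 and 3 in the fit of 2 populations. A single gene was higher there with the size factors of DESeq2, totals, abundant genes, no minimum mean or the Wald test. Over all genes 3277 and 510 were lower in EEC, against 2079. Higher there were 4395, 3452, 3539, 5563 and 4065, against 2461. AbsPro against SecPDG gave 8 higher with the size factors of DESeq2 or abundant genes, 11 with totals, 3 with no filter and 10 with 2 populations, and 2 lower with 2 populations or the Wald test. The settings for AbsPro against SecPDG gave 573, 541, 823, 365 and 668 higher over all genes, against 392. Lower there were 981 and 892 of all genes, against 455. Ent against Tuft gave 11 higher with the size factors of DESeq2, totals or the Wald test, and 9 with abundant genes. The numbers over all genes were 1206, 1244, 1225 and 1007, against 605. The older quasi-likelihood method of edgeR, added after the data were seen, gave 1 lower in SecPDG, 3 lower in Ent and 1 higher in AbsPro against SecPDG. Over all genes that method called 157, 1806 and 230 in these directions. Without the 4 libraries of high background, also added then, 7 were lower and 2 higher in SecPDG and 17 lower in Tuft. In Ent 0 were lower and 2 higher. AbsPro against SecPDG had 9 higher, and Ent against Tuft 7 higher and 1 lower. The same fit gave, over all genes, 774 and 1113, 1676, 862 and 1474, 794, and 953 and 589.

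Leaving out 1 library gave 1 to 5 genes lower and 0 to 2 higher in SecPDG, 7 to 17 lower in Tuft, 4 to 24 lower and 0 to 1 higher in Ent, 6 to 28 lower in EEC, 1 to 8 higher in AbsPro against SecPDG, and 2 to 4 in each direction in Ent against Tuft. Among the 38 genes, the sign of Fabp2 in EEC against Stem turned, at 0.79 without EEC 1 and -2.82 without EEC 2, each with 1 EEC library left. In no other case did a sign turn with a call on either side. Signs of uncalled values turned in other cases, such as Decr2 in EEC, at 0.49 without EEC 1 and -0.97 without EEC 2. The labels do not say whether same-numbered libraries share mice. Over 44 pairs of same-numbered libraries the correlation of their deviations was -0.438 to 0.35, with 8 over 0.1. With groups of 2 to 5 libraries these values cannot show whether mice were shared. With the replicate number as a block, 18 genes were lower in Tuft, 21 in Ent and 16 in EEC. Over all genes 1865, 3605 and 2350 were lower with the block, against 964, 2610 and 2079 without it. EEC had 2 libraries, the lower with 4122122 counts, which limits that comparison.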
